A study of Homo sapiens with 16 samples.

Results

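Methionine salvage and polyamine synthesis were followed through 10 genes: MTAP, MRI1, APIP, ENOPH1, ADI1, ODC1, AMD1, SRM, SMS and SAT1. They were chosen by name, and each symbol matched 1 Ensembl identifier in both deposited count tables, which makes 10 of 60676 genes. All 10 passed the low-count filter and were among the 19247 genes tested, although MTAP passed it only through the MeWo libraries. RNA came from 16 samples of 2 established human melanoma lines, 8 libraries of A101D and 8 of MeWo. A101D carries the label methionine dependence and MeWo the label methionine independence, the ability to grow when homocysteine, the direct precursor of methionine, takes the place of methionine in the medium. All samples share 1 growth protocol, a DMEM without methionine or cystine to which dialysed serum and 150 µM cystine were added. It describes 2 versions, the control, which received methionine at 200 µM, and a version that received homocysteine at 200 µM in place of methionine. No label says which library had which version, nor what, if anything, separates the libraries numbered 1 to 4 from those numbered 5 to 8. The 2 sets of numbers were kept apart here as numbers only. No label says that libraries of a line came from separate cultures either, so the p-values measure the spread between these libraries, which may be technical. Each line stands for 1 tumour, so line and methionine label cannot be told apart.

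Polyamines are small, positively charged molecules that cells need in order to grow. ODC1 (ornithine decarboxylase) makes putrescine, AMD1 (adenosylmethionine decarboxylase) turns S-adenosylmethionine into the donor of aminopropyl groups, SRM (spermidine synthase) uses that donor to make spermidine, and SMS (spermine synthase) uses it to make spermine. Both synthases release methylthioadenosine. MTAP (methylthioadenosine phosphorylase) splits it, and MRI1, APIP, ENOPH1 and ADI1 carry the sugar part through the methionine salvage pathway to the keto acid, which a transaminase turns back into methionine. SAT1 (spermidine/spermine acetyltransferase) marks polyamines for export or oxidation. In melanoma and many other cancers MTAP is often lost along with its neighbour CDKN2A, a cell cycle inhibitor gene.

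The promoters of 5 of the 10 genes hold a CACGTG E-box, the motif that MYC binds together with MAX. Their 6 sites are shown because ODC1 is a textbook MYC target and because the set holds genes of both pathways. The motif was searched on both strands, where it reads the same, in the 250 bases before each RefSeq start (GRCh38.p14). It lay in 2228 of 35116 such windows (6.34%) and in 5 of the 13 windows of the 10 genes. The sites follow 5′ to 3′ on the gene's strand with the motif in capitals and up to 12 bases on each side inside the window. They are in order of the genes ENOPH1 (chr4:82430364-82430393 and chr4:82430572-82430589, plus strand), MRI1 (chr19:13764274-13764303, plus strand), ADI1 (chr2:3519761-3519781, minus strand), ODC1 (chr2:10448024-10448053, minus strand) and SRM (chr1:11060200-11060229, minus strand).
ENOPH1 distal site: ggctcctttctgCACGTGccccgggcctct
ENOPH1 proximal site: ccttttcctgccCACGTG
MRI1: agtgggttcggcCACGTGgaatccgcgtcc
ADI1: aggCACGTGcgatgcctacgg
ODC1: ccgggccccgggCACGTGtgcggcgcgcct
SRM: ccggccgggcccCACGTGgcccctggagcg
In bases before the RefSeq start, the motif began at 214 and 6 in ENOPH1, 236 in MRI1, 247 in ADI1, 29 in ODC1 and 199 in SRM. The gene spans given below are from GENCODE, whose gene ends can differ from the RefSeq starts. By those spans the ODC1 site and the ENOPH1 proximal site lie inside the gene, not before it. A second motif, the amino acid response element core TGATGCAA, lay in 0.772% of all windows and in 0 of the 13 windows of these genes, so the motifs did not overlap. A match describes the sequence and does not show that a factor binds there.

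Libraries held 28910881 to 38961862 counts each. Levels are given in CPM, counts per 1e6 of the library size after scaling by the trimmed-mean method known as TMM, and log2 fold changes come from limma-voom with Benjamini-Hochberg adjustment over the 19247 genes. The pigment cell list of 9 markers summed to between 2577 and 3487 CPM in the A101D libraries and between 10240.1 and 11443 CPM in the MeWo libraries, and all 9 had counts in both lines. Of the 9, 6 were higher in MeWo (SOX10, MITF, PMEL, MLANA, TYR and TYRP1), beside 38.5% of all genes tested. The other 3 (S100B, S100A1 and DCT) were lower in MeWo, beside 40.5%. TYR, at 1.52 ± 0.23 CPM, and TYRP1, at 0.91 ± 0.61 CPM (SD, n = 8), were the 2 near 0 in A101D. The 5 leukocyte markers summed to at most 3.78 CPM and the 4 epithelial markers to at most 4.27 CPM in any library. The 6 fibroblast markers summed to between 590.4 and 1039 CPM in A101D, nearly all of it COL1A2, whereas MeWo had 76.2 to 86.0 CPM. Gene by gene, 4 of the 6 (COL1A1, COL3A1, DCN and LUM) were higher in MeWo, beside 38.5% of all genes tested. COL1A2 and PDGFRB were lower in MeWo, beside 40.5%. The median log2 fold change of the 6 was 1.38, and LUM stood at 73.9 CPM in MeWo and 1.70 CPM in A101D.

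MTAP (ENSG00000099810, chr9:21802543-21937651 on GRCh38) had no reads, or next to none, in A101D. The 8 A101D libraries held 0, 2, 0, 1, 0, 2, 1 and 0 counts, 6 in all. In MeWo the 8 libraries held 76.4, 75.4, 75.0, 75.7, 75.1, 79.6, 77.0 and 78.1 CPM, or 20817 counts in all. No A101D library came near any MeWo library. The depth-adjusted ratio of the summed counts was 3482, with an exact 95% interval of 1600 to 9490.3 that covers counting error only. The absence of MTAP reads in A101D is part of how the genes were set, so this difference is given without a test and counts of genes below are over the other 9. Within MeWo, MTAP did not differ detectably between the sets of libraries: the log2 fold change of libraries 5 to 8 over libraries 1 to 4 was 0.04, with a 95% interval of -0.05 to 0.12. The exons of MTAP overlap those of AL359922.1 and ERVFRD-3 on the same strand and of AL359922.2 on the other strand, and the strand setting of the counting is not given in the sources used here. These 3 genes held 0 counts in A101D, and in MeWo they held 0, 6 and 520 counts.

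Genes next to MTAP also lacked reads in A101D. GENCODE release 29 places 14 genes from the start of MTAP to the end of CDKN2B-AS1 (chr9:21802543-22121097). In A101D 12 of the 14 had no count in any library, and 4 of these 12 had none in MeWo either. Only 6 of the 12 held 20 or more counts in MeWo, so the others say little about the lines. Summed over the stretch, the 8 A101D libraries held 55 counts and the 8 MeWo libraries 29669. CDKN2A held 0 counts in A101D and 2510 in MeWo, at least 839.8-fold more when the A101D sum is set to a floor of 3 counts. CDKN2B, a second inhibitor gene of the same family, held 0 and 4400 counts, at least 1472-fold more in MeWo. Of the 55 counts in A101D, 49 lay in CDKN2B-AS1, an antisense RNA that runs past CDKN2B, with 4 in libraries 1 to 4 and 45 in libraries 5 to 8, and the other 6 in MTAP.

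Genes on either side of this stretch had reads in A101D. KLHL9, toward the telomere, ranged from 50.7 to 73.7 CPM in the 8 A101D libraries and from 46.7 to 49.1 CPM in the 8 MeWo libraries. DMRTA1, toward the centromere, stood at 5.33 ± 1.45 CPM (SD, n = 8) in A101D and 0.21 ± 0.10 CPM (SD, n = 8) in MeWo. Farther out, HACD4 was lower in MeWo by 4.39 on the log2 scale (SE 0.20, adjusted p = 7.08e-13) and TUSC1 was higher in MeWo by 3.76 (SE 0.13, adjusted p = 3.06e-14). MLLT3 was lower in MeWo (log2 fold change -0.56, adjusted p = 0.00114), and FOCAD had a log2 fold change of 0.08 (adjusted p = 0.168). The stretch with nearly no A101D reads thus began at MTAP and ended after CDKN2B, between genes that had reads in A101D. RNA counts do not measure DNA copies.

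**Figure D1:**
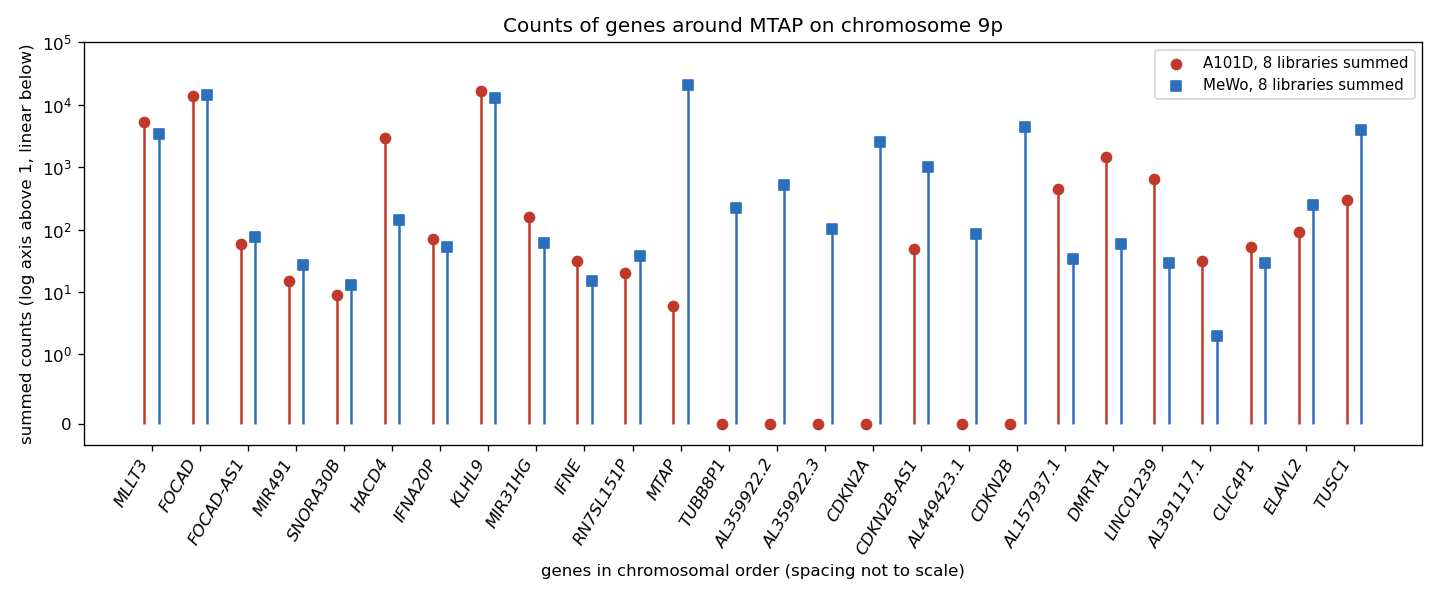
Summed counts over 8 libraries per line (y axis, log above 1 and linear below) for genes on chromosome 9p with at least 20 counts in both lines together, in chromosomal order. A101D (red circles) drops to 6 counts at MTAP and to 0 at CDKN2A and CDKN2B, where MeWo (blue squares) holds 20817, 2510 and 4400, while KLHL9 before MTAP and DMRTA1 after CDKN2B hold 16644 and 1468 counts in A101D.

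With MTAP nearly without reads, the 4 salvage enzymes that act after it were all transcribed in A101D, and none of them was close to the floor. Over all 16 libraries 2 of them (APIP, ENOPH1) were higher in MeWo, beside 38.5% of all genes. MRI1 was lower in MeWo, beside 40.5% of all genes, and ADI1 did not pass the test. Within A101D all 4 were lower in libraries 5 to 8 than in libraries 1 to 4, beside 34.1% of all genes. Within MeWo 0 of the 4 passed that test, also by limma-trend and also at an unadjusted p under 0.05, where 7.20% of all genes were higher and 8.42% lower by the adjusted p.

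MRI1 (ENSG00000037757, chr19:13764532-13774282), the isomerase that takes up the product of MTAP, was the only salvage gene of the 4 called lower in MeWo over the 16 libraries. In A101D its level was 31.1, 25.99, 27.1 and 28.2 CPM in libraries 1 to 4 and 20.1, 20.6, 20.3 and 20.6 CPM in libraries 5 to 8. In MeWo it was 17.2, 15.6, 15.3 and 16.7 CPM in libraries 1 to 4 and 16.01, 14.7, 16.03 and 15.2 CPM in libraries 5 to 8. Every A101D library lay above every MeWo library, and the 2 sets did not overlap in A101D. MRI1 was lower in MeWo by 0.60 on the log2 scale (1.51-fold, SE 0.10, adjusted p = 2.09e-05). The set difference in A101D, libraries 5 to 8 over libraries 1 to 4, was -0.46 (SE 0.05, adjusted p = 7.11e-10), and the MeWo difference was -0.07 (95% interval -0.20 to 0.06). C19orf53, whose exons overlap those of MRI1 on the same strand, was also higher in A101D, at 162 ± 8.1 against 82.0 ± 4.4 CPM (SD, n = 8), and its part in the MRI1 counts was not tested.

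APIP (ENSG00000149089, chr11:34853094-34916499), the dehydratase of the next step, had the smallest line difference of the 3 salvage genes whose lines differed. A101D had 20.4, 23.3, 22.4 and 22.4 CPM in libraries 1 to 4 and 18.1, 17.7, 17.0 and 19.4 CPM in libraries 5 to 8. MeWo had 25.0, 26.1, 23.8 and 22.4 CPM, then 24.0, 24.2, 22.01 and 24.0 CPM. The lines overlapped, since the highest A101D libraries reached the lowest MeWo ones. APIP was higher in MeWo by 0.26 (1.20-fold, SE 0.07, adjusted p = 0.00179) and lower in libraries 5 to 8 of A101D, with a log2 fold change of -0.29 (SE 0.06, adjusted p = 4.04e-05). PDHX, on the opposite strand, overlaps APIP exons and stood at 51.1 ± 2.7 CPM in A101D and 67.5 ± 3.4 CPM in MeWo (SD, n = 8).

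ENOPH1 (ENSG00000145293, chr4:82430562-82461091), the enolase-phosphatase, was higher in MeWo in every library. It stood at 49.4, 50.4, 47.6 and 50.3 CPM in A101D libraries 1 to 4 and at 34.1, 34.4, 35.2 and 37.7 CPM in libraries 5 to 8. The MeWo values were 72.5, 77.7, 71.0 and 67.7 CPM and then 69.9, 70.1, 66.5 and 67.3 CPM. Its line difference was 0.75 (1.68-fold, SE 0.09, adjusted p = 5.59e-07), and its set difference was -0.49 in A101D (SE 0.05, adjusted p = 3.69e-12) against -0.08 in MeWo (adjusted p = 0.216). No annotated gene overlaps ENOPH1.

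ADI1 (ENSG00000182551, chr2:3497361-3519736), the dioxygenase that makes the keto acid, had the widest spread of the 4 within A101D. Libraries 1 to 4 of A101D held 111, 116, 114 and 112 CPM and libraries 5 to 8 held 55.6, 57.8, 57.7 and 65.5 CPM. All 8 MeWo libraries, at 81.6, 86.0, 84.0, 80.1, 86.7, 82.2, 81.7 and 78.7 CPM, lay in the gap between those A101D sets. Averaged over all libraries the lines therefore differed by only 0.02 on the log2 scale (95% interval -0.33 to 0.37, adjusted p = 0.928). Set by set the direction turned: ADI1 was lower in MeWo among libraries 1 to 4 (log2 fold change -0.45, SE 0.04, adjusted p = 6.07e-13) and higher in MeWo among libraries 5 to 8 (0.48, SE 0.04, adjusted p = 3.37e-13).

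Of the polyamine enzymes, ODC1, SRM, SMS and, slightly, SAT1 were higher in MeWo over the 16 libraries, beside 38.5% of all genes. AMD1 was lower, beside 40.5%. Set by set, AMD1 was lower in MeWo among libraries 1 to 4 (-1.31) and slightly higher among libraries 5 to 8 (0.15). ODC1 and SAT1 were the 2 genes of the 9 that were higher in libraries 5 to 8 of A101D, beside 34.0% of all genes. AMD1 was the gene whose sets differed in opposite directions in the 2 lines.

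**Figure D2:**
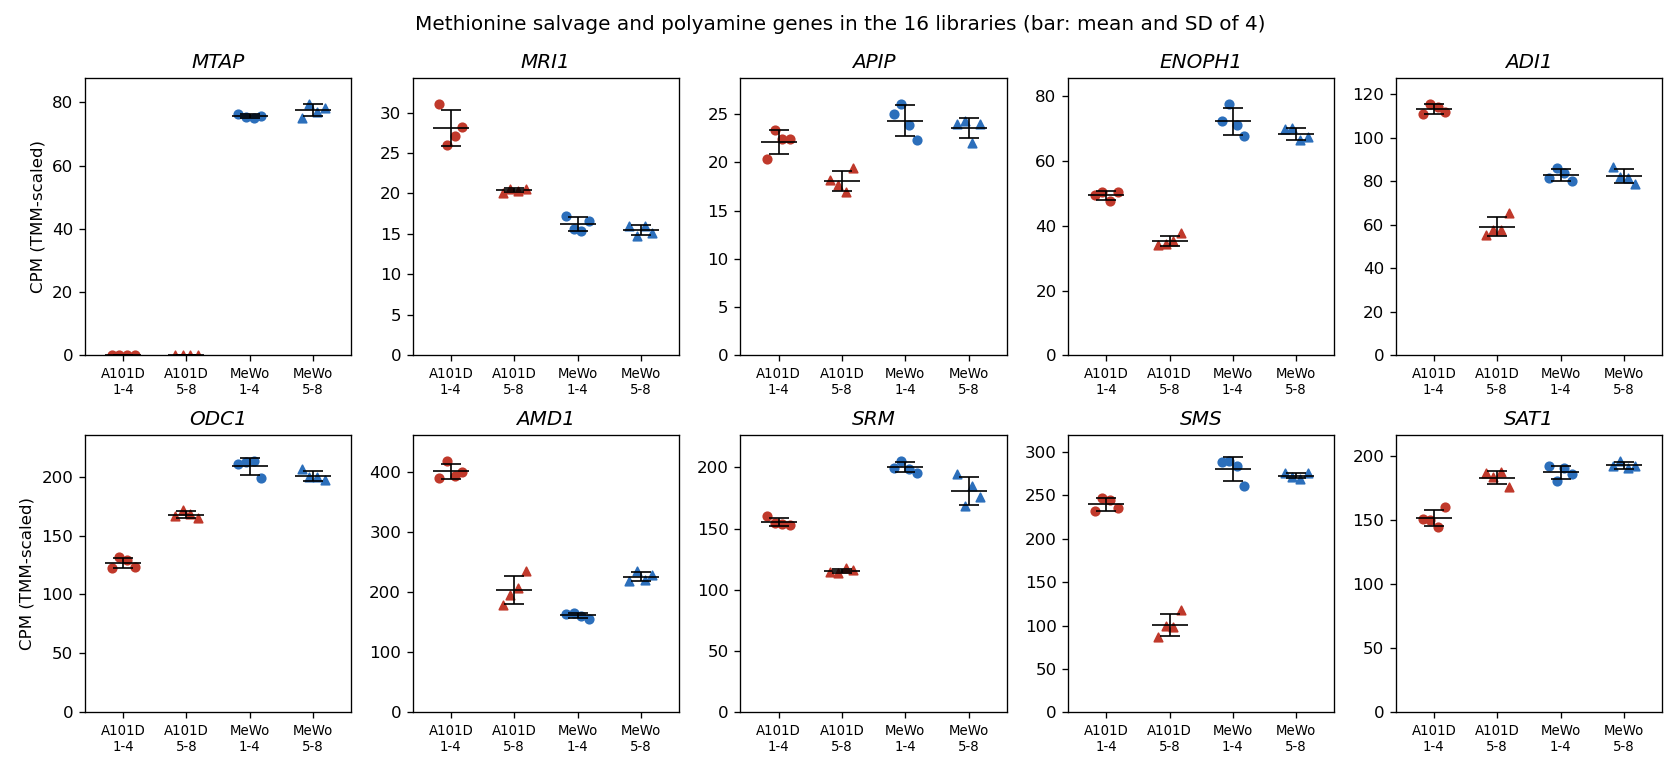
Level of each gene in CPM (y axis, from 0) in the 4 libraries of each line and set of replicate numbers (x axis); circles are libraries 1 to 4, triangles libraries 5 to 8, and the black bars give the mean and SD of 4. MTAP is at the axis in A101D, ADI1, AMD1 and SMS drop to about the 59.1, 204 and 100.6 CPM means in A101D libraries 5 to 8, and AMD1 is the gene with clearly separate sets in MeWo.

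ODC1 (ENSG00000115758, chr2:10439968-10448504), the first enzyme of polyamine synthesis, was lowest in libraries 1 to 4 of A101D. The values there were 123, 132, 129 and 123 CPM, and libraries 5 to 8 of A101D held 166, 172, 168 and 165 CPM. In MeWo they were 211, 213, 214 and 198 CPM and then 207, 199.8, 199 and 197 CPM. The lines did not overlap, and the A101D sets did not overlap. ODC1 was higher in MeWo by 0.49 (1.40-fold, SE 0.08, adjusted p = 1.39e-05), by 0.72 among libraries 1 to 4 and by 0.26 among libraries 5 to 8. Its set difference was 0.41 in A101D (SE 0.03, adjusted p = 2.07e-13) and -0.06 in MeWo (adjusted p = 0.258).

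AMD1 (ENSG00000123505, chr6:110874770-110895713) was the gene of the 9 whose set difference differed most between the lines. A101D held 391, 419.8, 394 and 401 CPM in libraries 1 to 4 and 179, 195, 207 and 235 CPM in libraries 5 to 8. MeWo held 164, 166, 160.4 and 155 CPM in libraries 1 to 4 and 219, 235, 220.2 and 229 CPM in libraries 5 to 8. The sets did not overlap in either line, with A101D high in libraries 1 to 4 and MeWo high in libraries 5 to 8. The set difference was -0.98 in A101D (SE 0.05, adjusted p = 3.57e-14) and 0.48 in MeWo (SE 0.05, adjusted p = 1.77e-06), and the test of the difference between the lines gave 1.47 (SE 0.07, adjusted p = 6.09e-14). Among libraries 1 to 4 AMD1 was lower in MeWo by 1.31, a log2 fold change of -1.31 (2.48-fold, SE 0.05, adjusted p = 7.25e-17). Among libraries 5 to 8 it was higher in MeWo by 0.15 (SE 0.05, adjusted p = 0.0111), with overlapping libraries. That last call was lost without any 1 of the A101D libraries 1 to 7, and it fell to 0.05 (adjusted p = 0.302) without A101D library 5.

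SRM (ENSG00000116649, chr1:11054584-11060024), spermidine synthase, was lower in libraries 5 to 8 of both lines. A101D held 160.4, 155, 154 and 153 CPM and then 115, 114, 118 and 116 CPM. MeWo held 199, 206, 199 and 196 CPM and then 194, 169, 185 and 175 CPM. The set difference was -0.43 in A101D (SE 0.04, adjusted p = 4.47e-13) and -0.15 in MeWo (SE 0.03, adjusted p = 0.00278). The drop was larger in A101D, by a tested difference of 0.28 (SE 0.05, adjusted p = 1.34e-05). Over all libraries SRM was higher in MeWo by 0.50 (1.42-fold, SE 0.08, adjusted p = 3.02e-05).

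SMS (ENSG00000102172, chrX:21940573-21994835), spermine synthase, had the largest set difference of the 9 genes in A101D. Libraries 1 to 4 of A101D held 232, 247, 245 and 236 CPM and libraries 5 to 8 held 86.7, 99.2, 98.1 and 118 CPM, a log2 fold change of -1.26 (2.40-fold, SE 0.06, adjusted p = 3.2e-14). The MeWo libraries held 289, 290.2, 284 and 260.4 CPM and then 276, 271, 269 and 276 CPM, with a set difference of -0.04 (95% interval -0.15 to 0.08). Each MeWo library lay above each A101D library. The lines differed by 0.84 over all libraries (1.79-fold, SE 0.22, adjusted p = 0.00233), which combines 0.23 among libraries 1 to 4 and 1.45 among libraries 5 to 8.

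SAT1 (ENSG00000130066, chrX:23783173-23786226), the acetyltransferase of polyamine breakdown, ran the other way from the synthases in A101D. Libraries 1 to 4 held 151, 150.0, 145 and 160.2 CPM and libraries 5 to 8 held 186, 183, 187 and 176 CPM, a log2 fold change of 0.27 (SE 0.03, adjusted p = 3.97e-09). MeWo stayed within 181 to 196 CPM over all 8 libraries, with a set difference of 0.04 (adjusted p = 0.452). SAT1 was higher in MeWo by 0.19 (1.14-fold, SE 0.06, adjusted p = 0.00529), but among libraries 5 to 8 the difference was 0.07 (SE 0.03, adjusted p = 0.0392). This last call was lost with 3 other scalings of the libraries, with values of 0.04 to 0.06, and without any 1 of the 8 A101D libraries, down to 0.01 (adjusted p = 0.704) without A101D library 8.

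Much of the transcriptome differed between the lines, so each count is given beside the share of all genes tested. Over 16 libraries 6 of the 9 genes were higher in MeWo, beside 38.5% of all genes, and 2 were lower in MeWo, beside 40.5%. Among libraries 1 to 4 the counts were 6 higher and 3 lower in MeWo, beside 38.9% and 42.6% of all genes. Among libraries 5 to 8 they were 8 higher and 1 lower, beside 41.6% and 43.7%. The median log2 fold change of the 9 genes was 0.26 over all libraries, 0.23 among libraries 1 to 4 and 0.38 among libraries 5 to 8, against -0.02, -0.03 and -0.02 for all genes. APIP was among the 6 in libraries 1 to 4 (log2 fold change 0.14, adjusted p = 0.0215), and its call there was lost without A101D library 1, where the value was 0.06 (adjusted p = 0.340), and likewise without A101D library 3, 4, 7 or 8 or MeWo library 2.

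**Figure D3:**
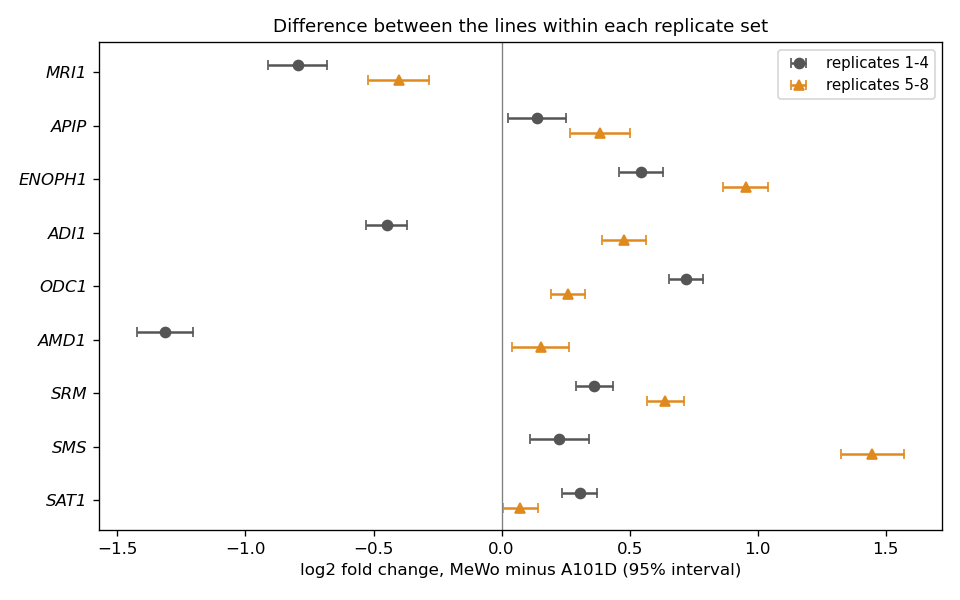
Log2 fold change of MeWo over A101D (x axis) with 95% intervals for the 9 genes besides MTAP, among libraries 1 to 4 (grey circles) and among libraries 5 to 8 (orange triangles). ADI1 and AMD1 lie left of 0 in the first set (-0.45 and -1.31) and right of 0 in the second (0.48 and 0.15), and MRI1 lies left of 0 in both (-0.80 and -0.40).

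In A101D all 9 genes differed between the sets: 2 (ODC1, SAT1) were higher in libraries 5 to 8, beside 34.0% of all genes, and 7 were lower, beside 34.1%. Their median log2 fold change was -0.46 and that of all genes 0.00. In MeWo 1 gene (AMD1) was higher in libraries 5 to 8, beside 7.20% of all genes, and 1 (SRM) was lower, beside 8.42%, with a median of -0.04 for the 9 genes and 0.00 for all genes. The set difference itself differed between the lines for all 9 genes: 7 had a higher value in MeWo, beside 27.9% of all genes, and ODC1 and SAT1 a lower one, beside 24.9%. The median of those differences was 0.39, and that of all genes was 0.02. MTAP itself could not be compared in this way, since its A101D sets held 3 counts each.

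**Figure D4:**
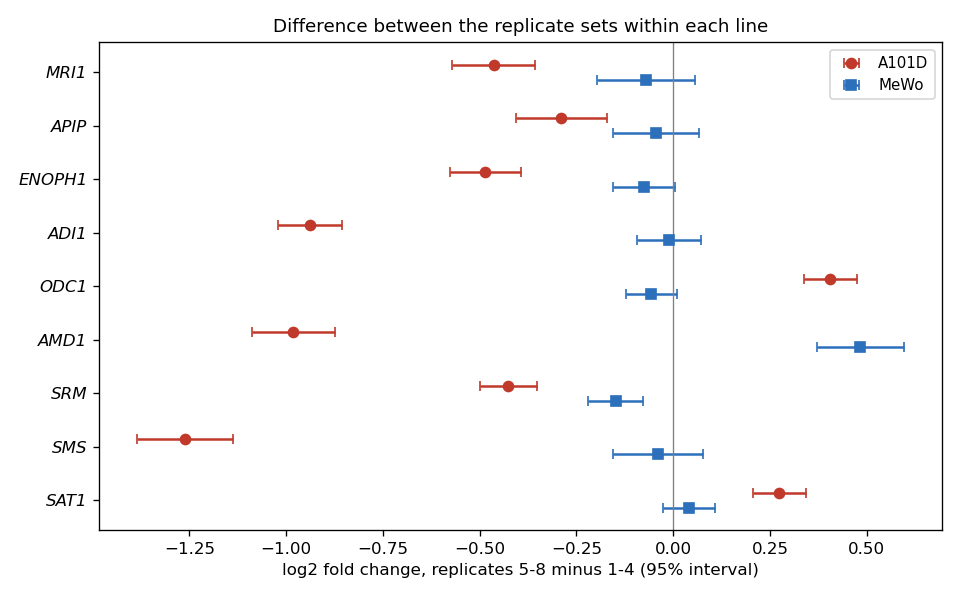
Log2 fold change of libraries 5 to 8 over libraries 1 to 4 (x axis) with 95% intervals for the 9 genes besides MTAP, in A101D (red circles) and MeWo (blue squares). In A101D 7 genes lie left of 0, down to -1.26 for SMS, and ODC1 and SAT1 lie right of it, while in MeWo the intervals of AMD1 and SRM are the ones that leave out 0.

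The A101D sets also differed in markers of dividing cells. The 16 cell cycle genes summed to 1621 to 1699 CPM in libraries 1 to 4 of A101D and to 418 to 444 CPM in libraries 5 to 8. All 16 were lower in libraries 5 to 8, beside 34.1% of all genes, with a median log2 fold change of -1.92. In MeWo the sum was 2755 to 2873 CPM and then 2684 to 2750 CPM. There 7 of the 16 were lower in libraries 5 to 8, beside 8.42% of all genes, with a median of -0.08. CCNE2, a cyclin of S phase entry, was 10.2 ± 0.60 CPM in libraries 1 to 4 of A101D and 0.78 ± 0.17 CPM in libraries 5 to 8 (SD, n = 4). Across the lines, all 16 were higher in MeWo, beside 38.5% of all genes. AURKB, a mitotic kinase (log2 fold change 2.70), and CCNE2 (2.42) led them. Between the MeWo sets MCM2, a replication helicase subunit, had the lowest set difference (-0.22, adjusted p = 0.000133). Of the 6 fibroblast markers, 2 (COL1A2, PDGFRB) were lower in libraries 5 to 8 of A101D, beside 34.1% of all genes. Another 3 (COL3A1, DCN, LUM) were higher there, beside 34.0%. The median log2 fold change of the 6 was 0.51. Their sum, 919 to 1039 CPM and then 590.4 to 658 CPM, follows COL1A2. The 4 epithelial markers summed to 1.48 to 1.53 CPM and then 3.91 to 4.27 CPM. Both tested genes (KRT14, CDH1) were higher in libraries 5 to 8, beside 34.0% of all genes. The 3 endothelial markers summed to 3.74 to 4.77 CPM in libraries 1 to 4 of A101D and 15.3 to 19.9 CPM in libraries 5 to 8, mostly VWF. The part of these lists in the set differences of the salvage and polyamine genes was not tested.

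Ratios of 2 genes within a library do not depend on scaling. AMD1 had 3.17 ± 0.08 counts for each ODC1 count in libraries 1 to 4 of A101D and 1.22 ± 0.15 in libraries 5 to 8 (SD, n = 4). In MeWo the same ratio was 0.77 ± 0.02 and then 1.13 ± 0.05 (SD, n = 4). The 2 lines thus lay far apart in AMD1 to ODC1 ratio among libraries 1 to 4, and among libraries 5 to 8 the ranges overlapped, at 1.08 to 1.43 in A101D and 1.06 to 1.18 in MeWo. SMS had 1.54 ± 0.07 counts for each SRM count in libraries 1 to 4 of A101D and 0.87 ± 0.11 in libraries 5 to 8, against 1.40 ± 0.05 and 1.51 ± 0.09 in MeWo (SD, n = 4). Within the salvage steps ADI1 had 2.29 ± 0.08 and then 1.67 ± 0.05 counts for each ENOPH1 count in A101D, and 1.15 ± 0.04 and then 1.20 ± 0.04 in MeWo (SD, n = 4). A ratio shows unequal change, not which gene changed.

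Between genes, levels were compared per kilobase of annotated exon. In MeWo the order was SMS at 128 ± 4.7 CPM per kilobase, SRM at 100.3 ± 6.8, SAT1 at 76.0 ± 1.9, ODC1 at 69.0 ± 2.3, ENOPH1 at 34.7 ± 1.8, AMD1 at 27.6 ± 5.0, ADI1 at 14.9 ± 0.50, MTAP at 5.24 ± 0.11, MRI1 at 4.58 ± 0.24 and APIP at 4.49 ± 0.25 (SD, n = 8). The libraries of ENOPH1 and AMD1 overlapped, as did those of MRI1 and APIP, and no other neighbours in this order did. The order was the same in both MeWo sets. In A101D it differed between the sets. In libraries 1 to 4 it was SMS at 111 ± 3.5 CPM per kilobase, SRM at 81.9 ± 1.8, SAT1 at 60.6 ± 2.6, AMD1 at 57.2 ± 1.8, ODC1 at 42.7 ± 1.5, ENOPH1 at 24.4 ± 0.64, ADI1 at 20.4 ± 0.38, MRI1 at 8.13 ± 0.63 and APIP at 4.15 ± 0.23 (SD, n = 4), and the libraries of SAT1 and AMD1 overlapped. In libraries 5 to 8 it was SAT1 at 73.3 ± 2.1, SRM at 61.0 ± 0.86, ODC1 at 56.5 ± 1.0, SMS at 46.6 ± 6.1, AMD1 at 29.1 ± 3.4, ENOPH1 at 17.5 ± 0.81, ADI1 at 10.6 ± 0.79, MRI1 at 5.90 ± 0.06 and APIP at 3.38 ± 0.19 CPM per kilobase (SD, n = 4), with no overlap between neighbours. SMS thus went from the first place to the fourth, and MTAP came last in both A101D sets. In both lines the polyamine genes SMS, SRM, SAT1 and ODC1 stood above all salvage genes. With the longest transcript as the length, SAT1 came first in both lines, at 147 and 167 CPM per kilobase, so the order among SMS, SRM and SAT1 also depended on the length used.

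Another 23 genes of polyamine control, transport and use were described as a list, of which 20 were tested. In A101D 7 of the 20 were higher and 8 lower in libraries 5 to 8, beside 34.0% and 34.1% of all genes, with a median log2 fold change of -0.04. In MeWo 0 were higher by limma-voom (1 at an unadjusted p under 0.05) and 6 lower, beside 7.20% and 8.42% of all genes, with a median of -0.05. Between the lines 6 were higher and 6 lower in MeWo, beside 38.5% and 40.5% of all genes, with a median of -0.02, and the medians of all genes were given above.

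Among the controls of ODC1, OAZ1 (antizyme, which targets ODC1 for degradation) stood at 498 ± 20.9 CPM in A101D and 498 ± 23.5 CPM in MeWo (SD, n = 8), with a 95% interval of -0.08 to 0.08 for the log2 fold change. Its sets differed in opposite directions, by 0.11 in A101D (adjusted p = 0.00178) and -0.10 in MeWo (adjusted p = 0.0182). AZIN1, the antizyme inhibitor, was higher in MeWo by 0.57 (SE 0.08, adjusted p = 6.72e-06) and lower in libraries 5 to 8 of A101D (log2 fold change -0.44, adjusted p = 1.06e-12).

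Of the catabolic enzymes, SMOX (spermine oxidase) stood at 17.2 ± 0.58 CPM in libraries 1 to 4 of A101D and at 35.1 ± 4.4 CPM in libraries 5 to 8, against 13.2 ± 0.20 and 12.5 ± 0.27 CPM in MeWo (SD, n = 4). It was higher in libraries 5 to 8 of A101D by 1.01 (adjusted p = 1.59e-16), and in MeWo the set difference was -0.09 (adjusted p = 0.536). PAOX, which oxidises acetylated polyamines, was under 1 CPM in every library. In A101D it held 86 counts in libraries 1 to 4 and 35 in libraries 5 to 8 (log2 fold change -1.35, adjusted p = 0.000109). Beside these, SAT1 of breakdown and ODC1 of synthesis were higher in libraries 5 to 8 of A101D, as were 34.0% of all genes. AMD1, SRM and SMS of synthesis were lower there, as were 34.1%. Named genes of synthesis and of breakdown thus each went in both directions.

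Among transport genes, SLC3A2, the heavy chain of amino acid transporters that also takes part in polyamine transport, was at 258 ± 6.7 CPM in libraries 1 to 4 of A101D and 576 ± 39.6 CPM in libraries 5 to 8 (log2 fold change 1.16, adjusted p = 6.66e-26) and stood at 825 ± 17.4 CPM in MeWo (SD, n = 8 in MeWo and n = 4 in each A101D set). SLC12A8, of the cation-chloride cotransporter family, was lower in MeWo (log2 fold change -3.07, adjusted p = 1.03e-08) and differed between the sets in opposite directions, by 0.99 in A101D (adjusted p = 3.63e-16) and -0.53 in MeWo (adjusted p = 0.0261). SLC18B1, a vesicular polyamine carrier, was lower in libraries 5 to 8 of A101D (-0.86, adjusted p = 1.94e-17). EIF5A, the protein that receives its hypusine from spermidine, was lower there too (-0.64, adjusted p = 3.72e-16), and DHPS, which attaches it, did not pass the set test in A101D (0.22, adjusted p = 0.0684) or MeWo (0.15, adjusted p = 0.321).

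**Figure D5:**
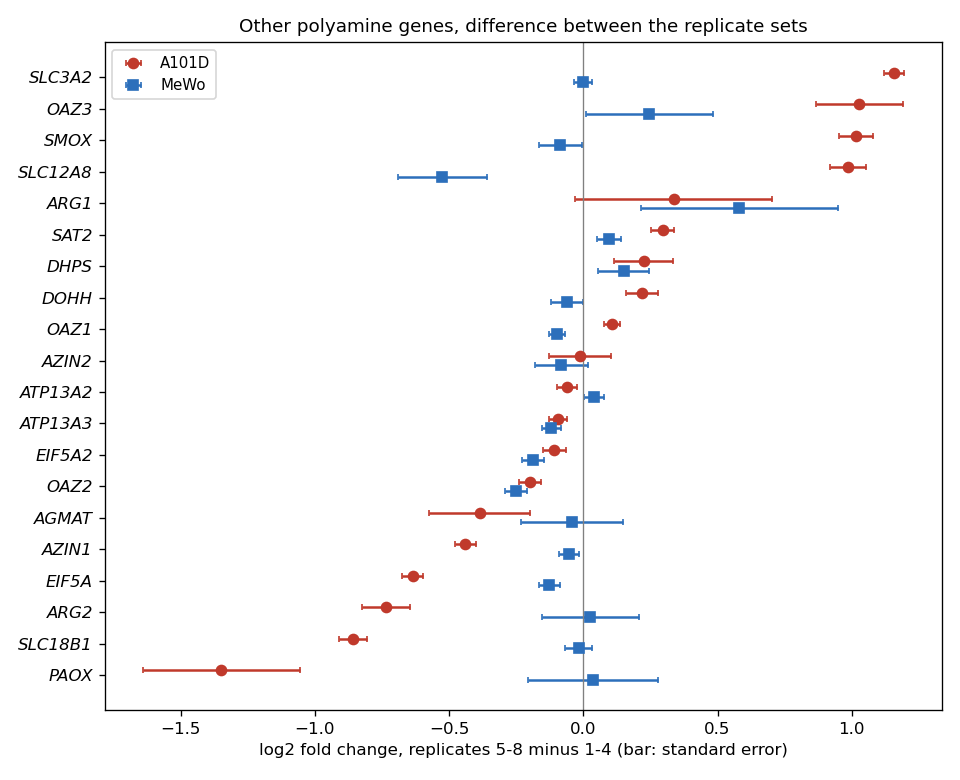
Log2 fold change of libraries 5 to 8 over libraries 1 to 4 (x axis, bars are standard errors) for the 20 tested genes of polyamine control, transport and use, in A101D (red circles) and MeWo (blue squares). SLC3A2, SMOX and SLC12A8 lie near 1 in A101D (1.16, 1.01 and 0.99) and at or left of 0 in MeWo. OAZ3 also lies near 1 in A101D (1.03) but right of 0 in MeWo (0.25). PAOX lies farthest left in A101D (-1.35).

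The last step of salvage, from the keto acid to methionine, can be carried out by several transaminases, and 8 of the 9 genes listed for it were tested. In A101D 3 were higher and 3 lower in libraries 5 to 8, beside 34.0% and 34.1% of all genes, and in MeWo 1 was higher and 1 lower, beside 7.20% and 8.42%. Shares of 3 and 1 in 8 are near those of all genes. BCAT1, a branched-chain transaminase, was lower in MeWo by 5.34, a log2 fold change of -5.34 (SE 0.30, adjusted p = 1.6e-11). It stood at 125 ± 5.0 CPM and then 259.7 ± 4.3 CPM in the A101D sets and at 3.74 ± 0.21 and 5.26 ± 0.36 CPM in the MeWo sets (SD, n = 4). GOT1 was higher in libraries 5 to 8 of A101D by 1.36 (adjusted p = 6.03e-24), with 0.11 in MeWo (adjusted p = 0.11). KYAT3 was higher in MeWo by 0.21 (adjusted p = 0.0439) with overlapping libraries, and GOT2 by 0.16 (adjusted p = 0.000777). NIT2, which clears the keto acid of glutamine, was lower in libraries 5 to 8 of A101D (-0.69, adjusted p = 1.47e-18).

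MYC, whose E-box is shown above for 5 of the genes, stood at 30.4 ± 2.0 CPM in libraries 1 to 4 of A101D and 15.8 ± 0.62 CPM in libraries 5 to 8, against 186 ± 8.4 and 166 ± 10.2 CPM in MeWo (SD, n = 4). MYC was higher in MeWo by 3.01 (SE 0.16, adjusted p = 6.01e-12) and lower in libraries 5 to 8 of both lines, by a log2 fold change of -0.94 in A101D (adjusted p = 5.74e-16) and -0.17 in MeWo (adjusted p = 0.00245). Of the other tested family members, MNT was higher in MeWo (1.22, adjusted p = 1.43e-12) and MXD1 lower (-0.61, adjusted p = 3.16e-07). MYCL was low in both lines, at 1.26 ± 0.39 CPM in A101D and 0.27 ± 0.09 CPM in MeWo (SD, n = 8). Unlike MYC, it rose between the A101D sets, from 0.91 ± 0.13 to 1.60 ± 0.11 CPM (SD, n = 4). Of the 5 genes with the motif, ODC1, SRM and ENOPH1 were higher in MeWo, beside 38.5% of all genes. MRI1 was lower, beside 40.5%, and ADI1 did not pass the test. Between the A101D sets ODC1 was higher in libraries 5 to 8, beside 34.0% of all genes, and the other 4 were lower, beside 34.1%. The part of MYC or of the motif in these differences was not tested.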

How the data were processed

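RNA-seq was made from 16 samples of the melanoma lines A101D and MeWo. The authors deposited 1 table of raw counts per gene for each line; each cell joins an Ensembl identifier and its count, and the other, non-numeric unit recorded for these deposited cells was split into both parts. Reads were trimmed with Trimmomatic 0.39-1, aligned with STAR 2.7.1a to GRCh38 and counted with featureCounts 2.0.0, per the submitters' processing notes; the annotation release was not given in the sources used here, nor was the strand setting. A count of reads shared with pseudogenes (2 for MTAP, 3 for ADI1, 4 for AMD1, 2 for SRM) could be split or lost.

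Library sizes were scaled with TMM factors (trims of 30% and 5%) computed on the 19247 genes that passed a filter of 0.298 CPM in 8 or more libraries and a sum of 15 or more. limma 3.58.1 in R 4.3.3 was used with voom weights, robust empirical Bayes and a threshold of 0.05 on the Benjamini-Hochberg adjusted p-value. One fit had a term per line; another had 4 groups of 4 (line by libraries 1 to 4 and 5 to 8) and gave the set, line-within-set and interaction contrasts. A count test was planned for columns that pass as counts; the joined cells did not, so limma-voom was used. Other scalings, filters, thresholds, limma-trend, a replicate block and fits without 1 library were tried as alternatives. The scripts were tested on simulated data. No 2 libraries were duplicates by a chi-square comparison of their counts. All 10 genes matched by symbol; positions are from GENCODE release 29, promoters from RefSeq (GRCh38.p14). The members, the 2 sets of replicate numbers and the lists were chosen with earlier results of these data known. Named genes were all members, CDKN2A, CDKN2B, OAZ1, AZIN1, DHPS, EIF5A, SMOX, PAOX and MYC. Per list they were also the called genes of at least 5 CPM with the highest and lowest fold changes. KLHL9, DMRTA1, CDKN2B-AS1, the named cell type markers, C19orf53, PDHX, MYCL and OAZ3 were added after their values were seen.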

Additional observations from a re-analysis of the deposited data

Results flagged for a closer look

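For all 9 genes besides MTAP the difference between libraries 5 to 8 and libraries 1 to 4 was not the same in the 2 lines by limma's test of that difference (an interaction term, adjusted over all genes). As the MeWo difference minus the A101D difference on the log2 scale, it was 1.47 for AMD1, 1.22 for SMS, 0.93 for ADI1, 0.41 for ENOPH1, 0.39 for MRI1, 0.28 for SRM and 0.24 for APIP, and -0.46 for ODC1 and -0.23 for SAT1. For all 9 the set difference in A101D was the larger in size, and AMD1 differed between the sets in both lines, in opposite directions. A difference between the lines was called for 27.9% (higher) and 24.9% (lower) of all genes tested, the cell cycle genes among them. What separates the sets is not in the labels, so their meaning was not tested.

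One library stood apart from its group of 4: APIP in MeWo library 7 was at 22.01 CPM and the nearest of the other 3 at 24.0 CPM, a gap of 0.888 of the group's range, above the Dixon limit for 4 samples. Of 57 groups checked, chance alone would flag about 1 in 20.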

How the results depend on the processing

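No called difference of the 9 genes changed direction under any alternative run. The line comparison gave 0 genes higher and 0 lower in MeWo in a limma test against a 2-fold change (also 0 at an unadjusted p under 0.05), and 1 lower at a threshold of 0.01, where AMD1 (adjusted p = 0.0119) dropped out. Under the other scalings, filters and limma-trend, and in each fit without 1 of the 16 libraries, the counts of genes called in the set and interaction contrasts were the same as reported. Among libraries 1 to 4 the fits without 1 library called 5 to 6 genes higher and 3 lower in MeWo; among libraries 5 to 8 they called 6 to 8 higher and 1 lower. The lost calls were APIP among libraries 1 to 4 (0.06 to 0.19 on the log2 scale, adjusted p up to 0.340) and AMD1 (0.05 to 0.19) and SAT1 (0.01 to 0.11) among libraries 5 to 8. Without MeWo library 2 the line comparison still called 6 higher and 2 lower. With the replicate block the line comparison called 6 genes higher and 2 lower, as without it. Same-numbered libraries correlated at 0.07 to 0.16 in their deviations from the line means, and in 2 of 8 pairs the A101D library correlated best with its own number, so the numbers were not taken as pairs. Neither the planned edgeR test nor DESeq2 was run, because the deposited cells join an identifier and a count and did not pass as counts in that form. Once split, all values were whole numbers. With the longest transcript as the length, 11 of 20 ranks of level per kilobase moved. With 6 MTAP counts in 8 A101D libraries, a set difference of MTAP in A101D was not detectable.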
